A study of Homo sapiens with 20 samples.

Results

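The genes described here are 10 human genes of zinc handling: the metallothioneins MT2A, MT1E, MT1X, MT1F and MT1G, the transcription factor gene MTF1, the zinc exporter gene SLC30A1, and the zinc importer genes SLC39A10, SLC39A6 and SLC39A14. They were found by gene name in a table of counts for 60671 gene identifiers. All 10 were present once and all 10 had enough counts to be among the 22938 genes tested. RNA came from hTCEpi, a human corneal epithelial line immortalized with telomerase, kept in keratinocyte growth medium. Cells received recombinant human SPARC, a secreted matricellular glycoprotein, at 0.05, 0.5 or 5 µg/ml for 24 hours, and the control received 0 µg/ml for the same time. These groups are called control, SPARC 0.05, SPARC 0.5 and SPARC 5, and each held 5 samples. The whole series is this single line, and the labels do not say that the 5 samples of a group came from separate cultures, so p-values measure the spread between these samples, which may be technical.

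Metallothioneins are small cysteine-rich proteins that bind zinc, copper and cadmium in the cytosol, and their genes are known to be induced by metals, oxidative stress and glucocorticoids. MTF1 is a zinc finger factor that senses free zinc and binds metal response elements in the promoters of metallothionein genes and of SLC30A1. SLC30A1 (ZnT1) moves zinc out of the cell, while SLC39A10 (ZIP10), SLC39A6 (ZIP6) and SLC39A14 (ZIP14) move zinc into the cytosol. In mice and zebrafish, MTF1 is known to repress the ZIP10 gene when zinc is high. Zinc itself was not measured here.

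The promoter windows of MT2A, MT1X, SLC30A1 and SLC39A10 are printed because these genes stand for the metal-responsive metallothioneins, the exporter and the importer in the comparisons that follow. They are RefSeq windows of the build GRCh38.p14, running from 250 bases before to 50 bases after a transcription start, written 5′ to 3′ on the gene's own strand. Capitals mark every match to the core of the metal response element, searched as TGCACNC and TGCGCNC on both strands, where the other strand reads GNGTGCA and GNGCGCA. The MT2A window is chr16:56608334-56608633 (+), that of MT1X is chr16:56682220-56682519 (+), that of SLC30A1 is chr1:211579112-211579411 (−), and of the windows listed for SLC39A10 the one shown is chr2:195656976-195657275 (+).
MT2A: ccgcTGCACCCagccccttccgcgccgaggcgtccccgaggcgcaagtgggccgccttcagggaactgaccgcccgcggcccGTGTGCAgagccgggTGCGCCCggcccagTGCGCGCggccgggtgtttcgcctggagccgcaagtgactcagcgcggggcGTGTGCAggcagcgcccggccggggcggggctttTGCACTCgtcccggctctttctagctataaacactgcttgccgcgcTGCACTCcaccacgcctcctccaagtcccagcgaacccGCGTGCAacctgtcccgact
MT1X: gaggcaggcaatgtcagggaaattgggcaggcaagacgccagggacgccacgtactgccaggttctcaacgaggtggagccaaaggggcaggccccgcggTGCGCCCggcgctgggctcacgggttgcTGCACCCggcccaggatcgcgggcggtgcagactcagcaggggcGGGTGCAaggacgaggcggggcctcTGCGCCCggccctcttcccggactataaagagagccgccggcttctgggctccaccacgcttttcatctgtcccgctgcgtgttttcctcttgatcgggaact
SLC30A1: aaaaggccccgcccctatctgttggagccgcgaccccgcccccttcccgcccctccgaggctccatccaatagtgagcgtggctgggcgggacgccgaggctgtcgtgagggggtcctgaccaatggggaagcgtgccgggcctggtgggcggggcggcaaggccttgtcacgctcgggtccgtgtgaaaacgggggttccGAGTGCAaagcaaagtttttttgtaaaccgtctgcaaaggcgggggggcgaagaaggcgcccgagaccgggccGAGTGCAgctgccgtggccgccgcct
SLC39A10: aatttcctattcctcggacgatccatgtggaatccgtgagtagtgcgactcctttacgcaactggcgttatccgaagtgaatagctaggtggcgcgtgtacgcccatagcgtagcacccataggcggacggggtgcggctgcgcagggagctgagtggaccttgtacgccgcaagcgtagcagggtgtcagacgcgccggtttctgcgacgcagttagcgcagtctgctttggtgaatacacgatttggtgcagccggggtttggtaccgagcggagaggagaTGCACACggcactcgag

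The MT2A window held 8 core matches, from position −246 to position 31 relative to the start. MT1X had 4 matches, the nearest to the start at −53. SLC30A1 had 2, at −49 and 25, and the SLC39A10 window shown had 1, at 34. The other SLC39A10 window, chr2:195656708-195657007, and the MTF1 window had 0 matches, and that of SLC39A6 had 1. Of 35116 promoter windows of the same length, 29.6% held at least 1 match, 8.6% at least 2, 0.601% at least 4 and 7 windows (0.0199%) at least 8. Of the other listed metallothioneins, only MT1H, MT1B and MT4 had a window to search. MT1H, a neighbour of MT1X in the cluster, had 8 matches, MT1B had 3 and MT4 had 3. A match describes letters in this window and not a bound site. MT1E, MT1F, MT1G and SLC39A14 were not among the windows matched.

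Read depth was 31955358 to 50112286 counts per sample. Levels are given as CPM (counts scaled to a common library total), with TMM scaling, which adjusts those totals so that most genes keep the same level. Of 10 markers of corneal and basal epithelium, KRT5 stood at 10817 to 11669 CPM, KRT14 at 291 to 538 CPM and TP63 at 264 to 290 CPM. CDH1 had 91.5 to 105 CPM, EPCAM 67.1 to 92.2 CPM and KRT15 43.7 to 140 CPM. The other markers were low: PAX6 had 6.32 to 8.99 CPM, ALDH3A1 3.31 to 8.06 CPM and KRT3 1.28 to 2.08 CPM. KRT12, a keratin of differentiated cornea, was at most 0.111 CPM. The summed markers of stroma reached at most 9.65 CPM, with COL1A1 at 2.9 to 7.13 CPM and KERA at 0. Those of immune cells reached at most 1.93 CPM. Libraries differed in how their values followed the GC content of genes: the correlation across 15098 genes, which are not independent replicates, was −0.0401 ± 0.0837 at SPARC 5 and 0.128 ± 0.106 in control (mean ± SD of 5 libraries). SPARC 5 replicates 2 and 5 lay apart from the other samples on the second principal component (48.23 and −40.11). Each gene was tested by edgeR (quasi-likelihood) in 1 model of all 20 samples, and p-values were adjusted by Benjamini-Hochberg over all tested genes. A gene is said to rise or fall where its adjusted p was under 0.05. Bulk RNA cannot separate fewer cells of a type from less RNA per cell.

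MT2A was the most abundant member in untreated cells by a wide margin. Levels of different genes are compared per kilobase of annotated exon, taken as the union of all annotated exons of a gene. For MT2A (1299 bases) and MT1X (1773 bases) this union covers the whole annotated gene. Their longest annotated transcripts have 903 and 1727 bases, so levels per kb, and the order below, depend on the length used. In control, MT2A stood at 1868 ± 129 CPM per kb and MT1E at 425 ± 25.8 CPM per kb (mean ± SD, n = 5), and their ranges did not overlap each other or that of any other member. SLC39A6 (25.9 ± 1.69 CPM per kb) and SLC39A14 (25 ± 0.447) came next and overlapped. SLC30A1 (12.5 ± 0.179 CPM per kb) and MT1X (11.7 ± 0.644) overlapped. SLC39A10 (5.91 ± 0.201 CPM per kb) overlapped MTF1 (5.31 ± 0.364), and MTF1 overlapped MT1G (5.02 ± 0.458). MT1F was lowest and apart from MT1G, at 0.724 ± 0.123 CPM per kb.

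At SPARC 5 against control, 4 of the 10 genes rose and none fell, where 11.6% of all tested genes were called and 7.04% rose. Those that rose were MT2A and MT1E among the metallothioneins and SLC39A10 and SLC39A14 among the importers. The changes were small, with the 4 folds between 1.08 and 1.23. The median log2 fold change was 0.13 over the 10 members and −0.007 over all genes tested, and 9 of the 10 members were above 0. With library sizes in place of TMM scaling, the median of all genes was −0.054 and 8 members were above 0. Only 1 of the 10 members, SLC39A10, then kept its call, where 3190 of the 22938 tested genes were called and 999 rose.

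MT2A (ENSG00000125148, chromosome 16, 56608199 to 56609497 of GRCh38, plus strand) encodes the main human metallothionein isoform. At SPARC 5 it had 2995, 2880, 2856, 2767 and 2673 CPM in replicates 1 to 5, against 2358, 2394, 2247, 2435 and 2700 CPM in control. Of the SPARC 5 samples, 4 lay above every control, and the lowest, replicate 5, lay just under the highest control. MT2A averaged 2834 ± 121 CPM at SPARC 5 and 2427 ± 168 CPM in control (SD, n = 5 each), for a log2 fold change of 0.22 ± 0.06 (SE; 1.17-fold; edgeR adjusted p = 0.0196). The call was lost without control replicate 1, control replicate 3 or SPARC 5 replicate 1 (edgeR adjusted p = 0.0526, 0.0588 and 0.0624) and with library sizes only (log2 0.18, adjusted p = 0.0534). At the lower doses MT2A had 2389, 2420, 2579, 2754 and 2359 CPM at SPARC 0.05 and 2400, 2696, 2865, 2864 and 2951 CPM at SPARC 0.5. The SPARC 0.5 samples fell in the span of the SPARC 5 samples except replicate 1, which was within the control range.

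MT1E (ENSG00000169715, chromosome 16, 56625475 to 56627112, plus strand), a member of the MT1 subfamily, was the next most abundant. At SPARC 5 it had 505, 520, 517, 526 and 480 CPM, against 404, 444, 451, 463 and 476 CPM in control. The groups did not overlap. Its means were 509 ± 18.3 CPM at SPARC 5 and 448 ± 27.1 CPM in control (SD, n = 5 each), with a log2 fold change of 0.19 ± 0.05 (edgeR adjusted p = 0.02). Without control replicate 1 or SPARC 5 replicate 4 the edgeR adjusted p was 0.0543 or 0.0518, and with library sizes only it was 0.0623 (log2 0.14). The lower doses gave 462, 442, 468, 510 and 440 CPM at SPARC 0.05 and 446, 487, 505, 505 and 522 CPM at SPARC 0.5.

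For genes with the GC content and length of MT2A, libraries deviated from the all-library trend by a mean log2 value of −0.0222 at SPARC 5 and 0.034 in control. Once this trend was removed from each library, the log2 fold changes were 0.28 for MT2A and 0.25 for MT1E, larger than without the correction (edgeR adjusted p = 0.00415 and 0.00284).

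**Figure D1:**
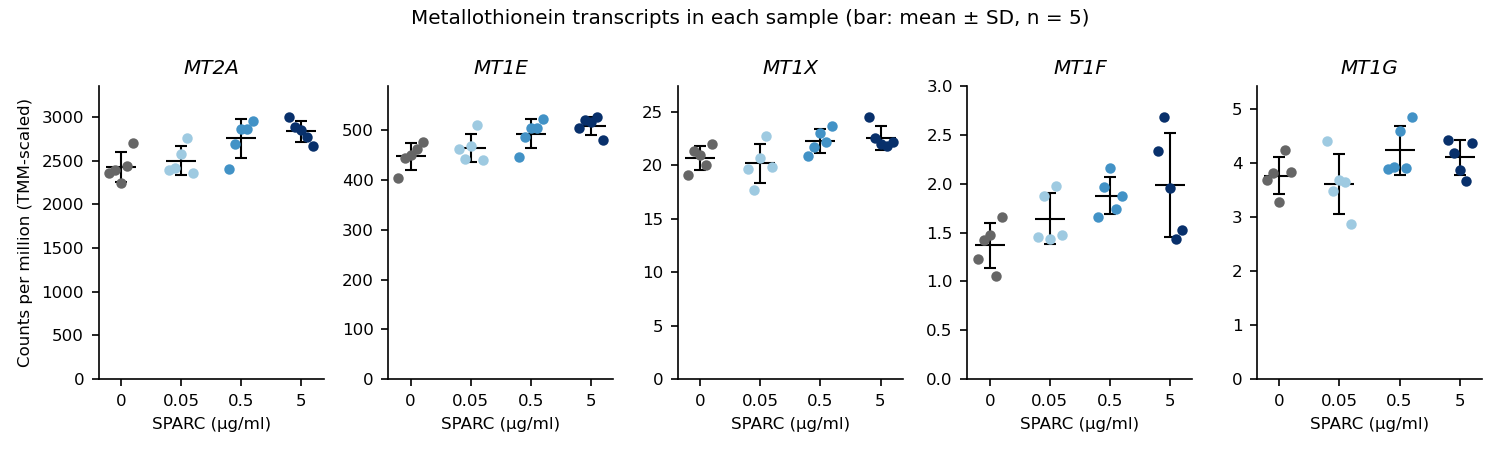
CPM, TMM-scaled, of the 5 member metallothioneins (vertical axes start at 0 and differ between panels) against the SPARC dose in µg/ml, with 1 point per sample and black bars for the mean ± SD of 5 samples. MT2A and MT1E samples at SPARC 0.5 and SPARC 5 lie mostly above those of control, while MT1F and MT1G lie below 5 CPM.

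MT1X, MT1F and MT1G did not pass the test at any dose against control. MT1X (ENSG00000187193, chromosome 16, 56682424 to 56684196), a zinc- and cadmium-binding MT1 isoform, had 24.5, 22.6, 22, 21.8 and 22.2 CPM at SPARC 5 and 19.1, 21.4, 21, 20 and 22 CPM in control. All 5 SPARC 5 samples were above the control mean, and the ranges overlapped (log2 0.13 ± 0.06, edgeR adjusted p = 0.214). MT1F (ENSG00000198417, 56657694 to 56660698) had 2.34, 2.68, 1.96, 1.43 and 1.53 CPM at SPARC 5 and 1.23, 1.42, 1.48, 1.06 and 1.66 CPM in control. These rest on 36 to 108 counts per sample, and the ranges overlapped. MT1F had the largest estimate of the members, 0.54 ± 0.21, with an edgeR adjusted p of 0.0912 and a DESeq2 adjusted p of 0.0428. MT1G (ENSG00000125144, 56666731 to 56668065, minus strand) was at 3.66 to 4.42 CPM at SPARC 5 and 3.27 to 4.23 CPM in control (log2 0.12 ± 0.14, edgeR adjusted p = 0.678).

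The metallothionein genes lie side by side on chromosome 16 and have near-identical copies, so reads may have been divided among them. Counts of 15 metallothionein genes and pseudogenes of that cluster, matched by name, were therefore also summed and are described with no test. MT1IP, at a mean of 0.0576 CPM under another name, was not in the sum. Pseudogenes outside the cluster were also left out, the most abundant being MT2P1 at a mean of 23.9 CPM, so reads divided with them are missed. The sum was 3389 ± 133 CPM at SPARC 5 and 2915 ± 186 CPM in control, or 0.332% of all counts at SPARC 5 and 0.295% in control. At SPARC 0.05 it was 3006 ± 195 CPM and at SPARC 0.5 it was 3293 ± 250 CPM. MT2A made up 82.1% to 84.4% of the sum over the 20 samples. For every 100 MT2A counts there were 18 ± 0.766 MT1E counts at SPARC 5 and 18.5 ± 1.15 in control, so their proportion moved by less than its spread. Within SPARC 0.5, replicate 1 was the lowest sample for all 5 member metallothioneins, and replicate 5 was the highest for MT2A, MT1E, MT1X and MT1G. Control replicate 5 and SPARC 0.05 replicate 4 were each the highest of their group for MT2A, MT1E, MT1X and MT1F.

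Among 15 other metallothionein genes and pseudogenes present in the table, 8 had enough counts to test, and none passed in any comparison. At SPARC 5 against control, 11.6% of all tested genes were called, so few calls would be looked for among 8 genes. Their SE in that comparison ran from 0.11 for MT2P1 to 0.62 for MT1P1, against 0.06 for MT2A. A change of the size seen in MT2A could therefore be missed in them. At SPARC 5 against control, the median log2 fold change of these 8 was 0.16 and 7 were above 0. The most abundant was MT2P1, a pseudogene copy of MT2A, at 26.4 ± 3.57 CPM at SPARC 5 and 22.8 ± 3.17 CPM in control (log2 0.21 ± 0.11, edgeR adjusted p = 0.255). MT1JP, MT1H and MT1L averaged 5.36, 3.74 and 3.67 CPM over the 20 samples. MT3, the brain isoform, and MT4, an isoform of stratified epithelium, averaged 0.164 and 0.035 CPM and were not tested.

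MTF1 (ENSG00000188786, chromosome 1, 37809567 to 37859620, minus strand) did not pass the test. It had 39.1, 39, 37.7, 44.5 and 42.3 CPM at SPARC 5, against 47.6, 40.7, 40.9, 42.5 and 41.1 CPM in control. The groups overlapped, and control replicate 1 stood above all other samples. Its log2 fold change was −0.07 ± 0.05 (edgeR adjusted p = 0.415), with −0.06 ± 0.05 at SPARC 0.05 and −0.04 ± 0.05 at SPARC 0.5. The pseudogene AL929472.4 lies antisense within MTF1 and had 2 to 23 counts per sample.

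The exporter gene SLC30A1 (ENSG00000170385, chromosome 1, 211571568 to 211578742, minus strand) had 74.6, 70.8, 78.6, 68 and 73.3 CPM at SPARC 5, against 69.5, 67.8, 66.8, 68.4 and 68.2 CPM in control. SPARC 5 replicate 4 lay inside the control range, and the other 4 lay above it. Its log2 fold change of 0.10 ± 0.04 did not pass (edgeR adjusted p = 0.0745), and with GC and length trends removed it was 0.04 (adjusted p = 0.632). Without SPARC 5 replicate 4 the same test gave 0.13 and an edgeR adjusted p of 0.0269. At the lower doses SLC30A1 had 66.4, 66.7, 69.6, 67.9 and 64.7 CPM at SPARC 0.05 and 74.6, 65.3, 70.5, 72.8 and 66.1 CPM at SPARC 0.5.

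SLC39A10 (ENSG00000196950, chromosome 2, 195575977 to 195737702, plus strand), a zinc importer of the plasma membrane, had the smallest adjusted p of the members. It had 50.6, 47.7, 49.8, 50.4 and 52.3 CPM at SPARC 5, against 38.7, 42.3, 41.7, 40.4 and 41.4 CPM in control. Every SPARC 5 sample lay above every sample of the other 3 groups. SLC39A10 averaged 50.2 ± 1.65 CPM at SPARC 5 and 40.9 ± 1.39 CPM in control (SD, n = 5 each), for a log2 fold change of 0.29 ± 0.05 (1.23-fold; edgeR adjusted p = 2.48e-07). SLC39A10 passed in all 20 fits that each left out 1 sample (log2 0.27 to 0.31) and with library sizes only (0.25, adjusted p = 1.47e-05). For its GC content and length the mean log2 deviation of the libraries was 0.0221 at SPARC 5 and −0.0421 in control, and with that trend removed its log2 fold change was 0.23 (edgeR adjusted p = 4.39e-05). At the lower doses it had 42.5, 42.7, 43.8, 46.3 and 41.9 CPM at SPARC 0.05 and 47.1, 44.4, 43.9, 45.1 and 40.1 CPM at SPARC 0.5, overlapping control in both.

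SLC39A14 (ENSG00000104635, chromosome 8, 22367249 to 22434129, plus strand), which also carries manganese and iron not bound to transferrin, rose by less. It had 188, 177, 194, 191 and 182 CPM at SPARC 5, against 177, 171, 171, 176 and 172 CPM in control. SPARC 5 replicate 2 met the top of the control range, and the other 4 samples lay above it. The means were 186 ± 6.87 CPM at SPARC 5 and 173 ± 3.1 CPM in control, with a log2 fold change of 0.11 ± 0.03 (1.08-fold; edgeR adjusted p = 0.00381). This call held in all 20 fits that left out 1 sample but was lost with library sizes only (0.06, adjusted p = 0.157). Its group means at the lower doses were 174 ± 3.62 CPM at SPARC 0.05 and 175 ± 6.02 CPM at SPARC 0.5.

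SLC39A6 (ENSG00000141424, chromosome 18, 36108532 to 36129385, minus strand), the importer closest in sequence to SLC39A10 and known to pair with it, did not pass any test. It had 104, 95.2, 93.4, 96.2 and 99.5 CPM at SPARC 5, against 98, 96.4, 84.4, 97.7 and 100 CPM in control. The groups overlapped, and the log2 fold change was 0.04 ± 0.04 (edgeR adjusted p = 0.64), or −0.01 with library sizes only.

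**Figure D2:**
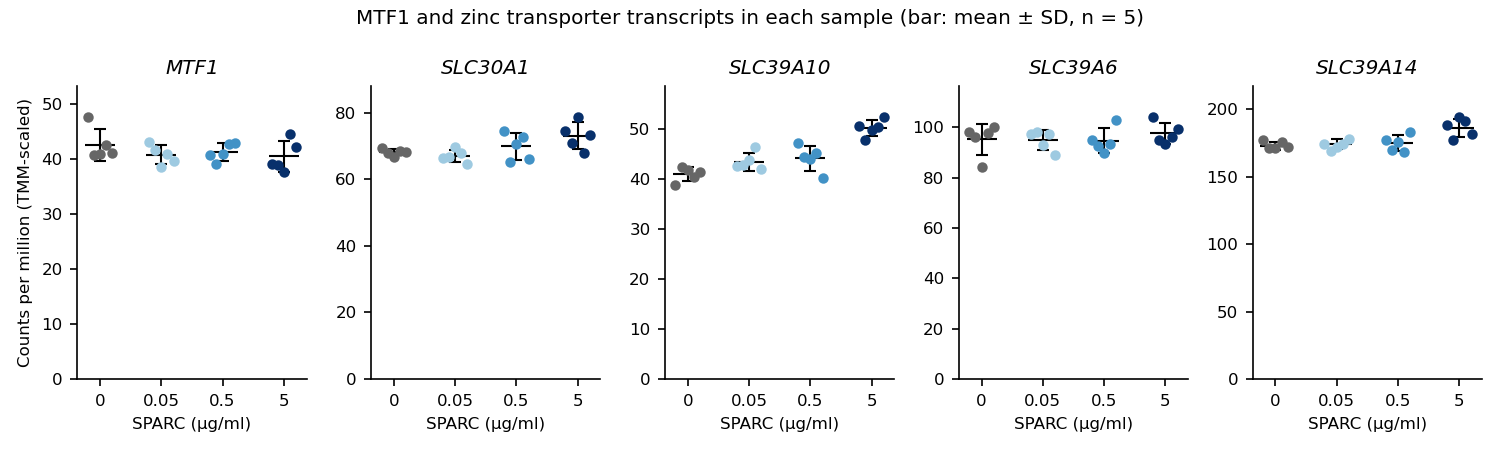
CPM, TMM-scaled, of MTF1 and of the 4 zinc transporter genes (vertical axes start at 0 and differ between panels) against the SPARC dose in µg/ml, with 1 point per sample and black bars for the mean ± SD of 5 samples. All 5 SPARC 5 samples of SLC39A10 lie above its other 15 samples, whereas the groups overlap in the other panels.

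The groups did not overlap at SPARC 5 against control for 2 of the 10 members, MT1E and SLC39A10, where the ranges were apart for 7.68% of all tested genes. At SPARC 0.5 the ranges were apart for MT1F alone (3.1% of tested genes), with 53 to 108 counts in SPARC 0.5 and 36 to 60 in control. The gap was smaller than rounding: SPARC 0.5 replicate 1 (53 counts) and control replicate 5 (55 counts) were both at 1.66 CPM.

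Against control, none of the 10 members passed at SPARC 0.5, where 2.25% of tested genes did. At an unadjusted edgeR p under 0.05 there were 4, all higher: MT2A, MT1E, MT1F and SLC39A10, where 13.8% of tested genes were under it and 7.41% were also higher. The SPARC 0.5 estimate for MT2A was 0.18 ± 0.06 (edgeR adjusted p = 0.139), close to that at SPARC 5. DESeq2 called MT2A at SPARC 0.5 (adjusted p = 0.0393), and edgeR did without SPARC 0.5 replicate 1 (log2 0.23, adjusted p = 0.0393). At SPARC 0.05 none of the 10 passed, where 0.266% of tested genes did; by edgeR none reached an unadjusted p under 0.05, and DESeq2 also called 0. The 3 dose comparisons share the 5 control samples.

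**Figure D3:**
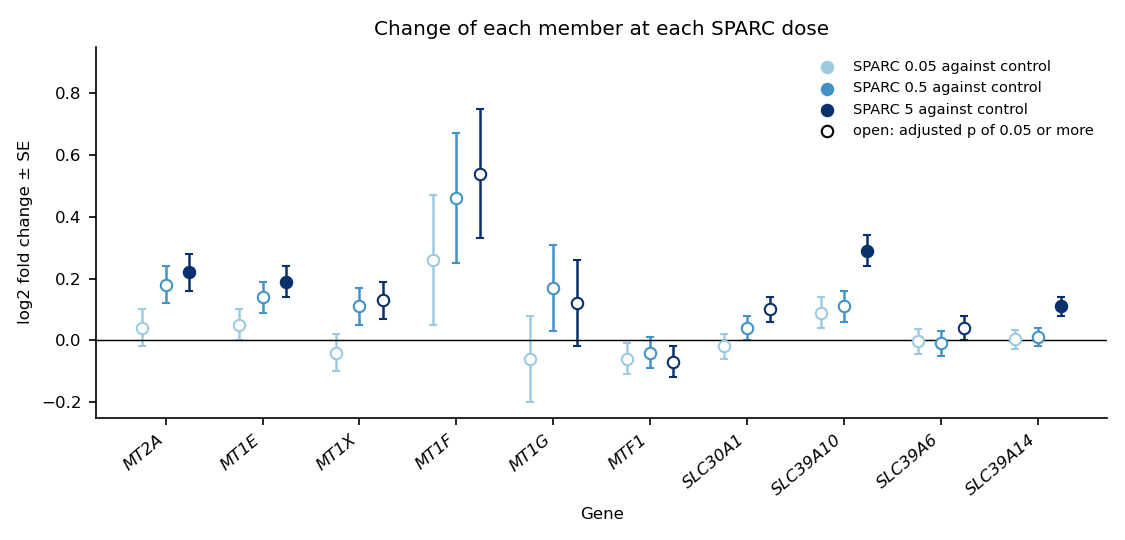
Log2 fold change ± SE of each member against control at SPARC 0.05, SPARC 0.5 and SPARC 5, from edgeR, with filled points where the adjusted p was under 0.05. The 4 filled points are MT2A, MT1E, SLC39A10 and SLC39A14 at SPARC 5, and the widest error bars belong to MT1F and MT1G.

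The authors' deposited tables gave a different call for the metallothioneins at SPARC 0.5. In the authors' deposited table for that dose, MT2A had a log2 fold change of 0.19 (adjusted p = 0.000409) and MT1E one of 0.14 (adjusted p = 0.00816), where 3.42% of its 16045 genes were under 0.05. Those fold changes differ by at most 0.01 from the edgeR values (0.18 and 0.14), and the adjusted p differs. At SPARC 5 the authors' deposited table was under 0.05 for MT2A, MT1E, SLC39A10 and SLC39A14 (adjusted p = 2.85e-06, 4.94e-05, 2.62e-06 and 0.00644) and for no other member, where 16.3% of its genes were. At SPARC 0.05 the authors' deposited table had 0.686% of genes under 0.05 and no member.

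Between doses, 3 transporter genes rose, and no metallothionein passed in the edgeR model of all samples and tested genes. At SPARC 5 against SPARC 0.5, 2 of 10 members rose, where 4.8% of tested genes were called and 3.31% rose: SLC39A10 by 0.19 ± 0.04 (edgeR adjusted p = 0.00314) and SLC39A14 by 0.09 ± 0.03 (edgeR adjusted p = 0.0258). The SLC39A14 call was lost in 6 of the 20 fits that left out 1 sample, those without SPARC 0.5 replicate 2, 3 or 4 or SPARC 5 replicate 1, 3 or 4 (adjusted p up to 0.133), and with library sizes only (0.137) or no filter on low counts (0.148). MT2A differed by 0.04 ± 0.06 between these doses (edgeR adjusted p = 0.851). At SPARC 5 against SPARC 0.05, 3 of 10 rose, where 8.28% of tested genes were called and 5.54% rose: SLC39A10 (0.21 ± 0.04, edgeR adjusted p = 0.000401), SLC39A14 (0.10 ± 0.03, adjusted p = 0.00643) and SLC30A1 (0.12 ± 0.04, adjusted p = 0.0245). SLC30A1 kept that call in 13 of the 20 fits, losing it without SPARC 0.05 replicate 1, 2, 4 or 5 or SPARC 5 replicate 1, 3 or 5, and lost it with library sizes only (edgeR adjusted p = 0.17) or no filter (0.0678). SLC39A14 lost its call there with library sizes only (0.138). Without SPARC 0.05 replicate 4 the same comparison called 5 members, MT2A, MT1E and MT1X among them (edgeR adjusted p = 0.045, 0.0498 and 0.0409). In that comparison MT2A, with an edgeR adjusted p of 0.0781, was also called by DESeq2 (0.0258), with GC and length trends removed (0.0377) and without SPARC 0.5 replicate 1 (0.0373). MT1E, with an edgeR adjusted p of 0.131, was also called with no filter on low counts (0.000557) and in a fit of the 2 groups alone (0.0115). Its log2 fold change was 0.13 in each of these fits.

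In the edgeR test for any difference among the 4 groups, 3 of 10 members passed, where 11% of tested genes did: SLC39A10 (adjusted p = 1.86e-06), SLC39A14 (adjusted p = 0.00521) and MT2A (adjusted p = 0.0403). MT2A kept this in 4 of the 20 fits that left out 1 sample, with an adjusted p of up to 0.0956 without SPARC 5 replicate 1, and lost it with library sizes only (0.0952) and with no filter on low counts (0.0856). MT1E had an edgeR adjusted p of 0.0628 in this test and passed it by DESeq2 (0.00635), with no filter (1.96e-08) and with GC and length trends removed (0.0104). The lower p with no filter did not come with a larger change. At SPARC 5 against control the MT1E log2 fold change was 0.18 with no filter and 0.19 in the main fit, with edgeR adjusted p = 3.35e-08 and 0.02. SLC39A14 lost its call in the test of any difference without SPARC 5 replicate 3 (adjusted p = 0.0682) and with library sizes only (0.186). In the trend over dose steps, 5 of 10 members rose, where 11.1% of tested genes were called and 6.81% rose. The 4 groups in order of dose were counted as equal steps, so a slope need not mean a rise at every dose. As log2 fold changes against control, from lowest to highest dose, SLC39A14 had 0.003, 0.01 and 0.11, and SLC30A1 had −0.02, 0.04 and 0.10. In the same order MT2A had 0.04, 0.18 and 0.22, MT1E 0.05, 0.14 and 0.19, and SLC39A10 0.09, 0.11 and 0.29. Per step, the log2 change was 0.09 ± 0.01 for SLC39A10 (edgeR adjusted p = 2.89e-06), 0.08 ± 0.02 for MT2A (0.00566), 0.06 ± 0.01 for MT1E (0.00555), 0.04 ± 0.01 for SLC30A1 (0.0474) and 0.03 ± 0.01 for SLC39A14 (0.0108). The trend of SLC30A1 passed in 6 of 20 fits that left out 1 sample and was 0.02 once GC and length trends were removed (edgeR adjusted p = 0.469), and it also missed the threshold with library sizes only (0.332) and no filter (0.0889). That of SLC39A14 was lost without SPARC 5 replicate 3 or 4 (adjusted p = 0.0655 and 0.0512) and with library sizes only (0.253). DESeq2 and the removal of GC and length trends each added MT1X (adjusted p = 0.0492 and 0.0191) and MT1F (adjusted p = 0.0255 and 0.0393) to the trend.

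The rest of the transporter families gave 2 further rises, both importers. Of 9 other SLC39 genes tested, SLC39A8 and SLC39A13 rose at SPARC 5 against control, none fell and 7 did not pass, where 11.6% of all tested genes were called and 7.04% rose. The median log2 fold change of the 9 was 0.02. SLC39A8 (ZIP8), which carries zinc, manganese and cadmium, had 39.9 to 46 CPM at SPARC 5 and 34.2 to 35.9 CPM in control (log2 0.29 ± 0.05, edgeR adjusted p = 3.24e-06). SLC39A13 (ZIP13), an importer of intracellular membranes that is mutated in a form of Ehlers-Danlos syndrome, had 80.3 to 92.7 CPM at SPARC 5 and 69.8 to 76.6 CPM in control (log2 0.26 ± 0.04, edgeR adjusted p = 5.91e-08). Neither range overlapped control, and both genes passed in all 20 fits that left out 1 sample and with library sizes only. SLC39A7, SLC39A9, SLC39A3 and SLC39A4 had log2 fold changes of 0.06, −0.00, 0.02 and −0.09. Of 6 other SLC30 exporters tested, none passed in any comparison, and their median log2 fold change at SPARC 5 was 0.05. SLC30A9, SLC30A7, SLC30A6 and SLC30A5, the most abundant of them, had −0.02, 0.11, −0.03 and −0.01, with SLC30A7 nearest to the threshold (edgeR adjusted p = 0.0833). Neither SLC39A8 nor SLC39A13 passed at SPARC 0.5 or SPARC 0.05 against control.

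**Figure D4:**
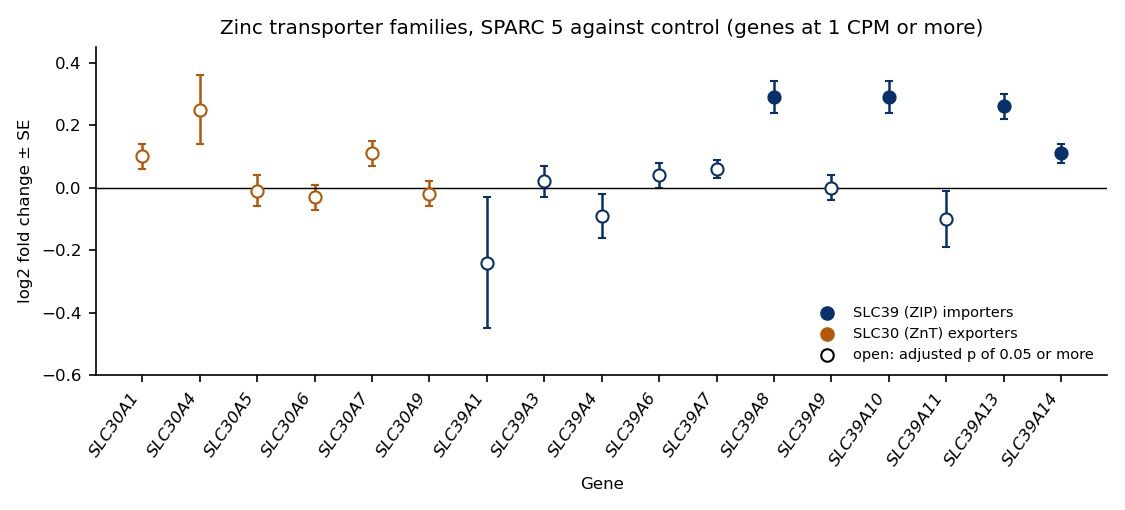
Log2 fold change ± SE at SPARC 5 against control for SLC39 importer genes and SLC30 exporter genes whose mean over the samples reached 1 CPM, from edgeR, with filled points where the adjusted p was under 0.05. The filled points are SLC39A8, SLC39A10, SLC39A13 and SLC39A14, all above 0, and no SLC30 point is filled.

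Other genes of metal handling and of known inducers of metallothioneins were counted by list, beside 11.6% of all tested genes called, 7.04% rising, at SPARC 5 against control. None of 9 copper genes passed at SPARC 5 against control, and COMMD1 rose at SPARC 5 against SPARC 0.05 (0.27 ± 0.09, edgeR adjusted p = 0.037). Of 9 genes of manganese and iron transport, 2 rose and none fell: ATP2C1, the Golgi calcium and manganese pump (0.11 ± 0.03, edgeR adjusted p = 0.00453), and TMEM165, a Golgi manganese transporter (0.12 ± 0.04, adjusted p = 0.0146). In the same list SLC25A37 rose at SPARC 5 against SPARC 0.5 (0.13 ± 0.03, edgeR adjusted p = 0.00223), and STEAP3 passed the test of any difference alone (adjusted p = 0.029). SLC25A37 averaged 109 CPM in control, 103 at SPARC 0.5 and 113 at SPARC 5. It did not pass at SPARC 5 against control (0.05 ± 0.03, edgeR adjusted p = 0.359). Of 11 genes induced by heavy metal or oxidative stress, 3 fell and none rose at SPARC 5. These were GCLC, which starts glutathione synthesis (−0.16 ± 0.03, edgeR adjusted p = 0.000112), TXNRD1, thioredoxin reductase (−0.13 ± 0.03, adjusted p = 0.000267), and SRXN1, sulfiredoxin (−0.46 ± 0.14, adjusted p = 0.0141). The heat shock genes HSPH1, DNAJB1, HSPA1B and HSPA1A did not pass, with log2 fold changes of −0.00, −0.08, −0.06 and 0.01. SLC7A11, the cystine transporter, rose at SPARC 0.05 (0.14 ± 0.03, edgeR adjusted p = 0.0419) and SPARC 0.5 (0.12 ± 0.03, adjusted p = 0.0261) against control. At SPARC 5 its log2 fold change against control was −0.01 ± 0.03. It fell at SPARC 5 against SPARC 0.5 (−0.13 ± 0.03, edgeR adjusted p = 0.00534) and SPARC 0.05 (−0.15 ± 0.03, adjusted p = 0.000882). Of 8 glucocorticoid-induced genes, 1 rose at SPARC 5, the kinase gene SGK1 (1.06 ± 0.07, edgeR adjusted p = 1.16e-16), a share of the list near that of all genes. FKBP5, PER1, CEBPD and TSC22D3 did not pass, with log2 fold changes of −0.01, −0.02, −0.13 and 0.07. DUSP1 rose at SPARC 5 against SPARC 0.05 (0.37 ± 0.11, edgeR adjusted p = 0.0295), and ZBTB16 fell over dose steps (−0.07 ± 0.02, adjusted p = 0.0204).

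The genes most like each member that passed the test of any difference were sought among the 9624 genes averaging 10 CPM or more. The measure was the root mean square distance of log2 CPM (prior count 2) over the 20 samples, each gene centred on its own mean, so that 0 is an identical pattern. A gene with no variation would lie at the member's own root mean square, 0.127 for MT2A, 0.121 for SLC39A10 and 0.0574 for SLC39A14. The gene nearest to MT2A was MT1E, at 0.0578, followed by ANXA3 (0.062) and PHF20 (0.0717). MT1X ranked 5 for MT2A (0.0743), whereas SLC30A1 ranked 1384, SLC39A10 ranked 1803 and MTF1 ranked 6911. For SLC39A10 the nearest were TRAM1 (0.048), PPP1R14C (0.0596) and SFRP1 (0.0601), and for SLC39A14 they were REEP5 (0.033), AP2B1 (0.0354) and SEC14L1 (0.0364). All of these share libraries and scaling, so the distances are descriptions.

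**Figure D5:**
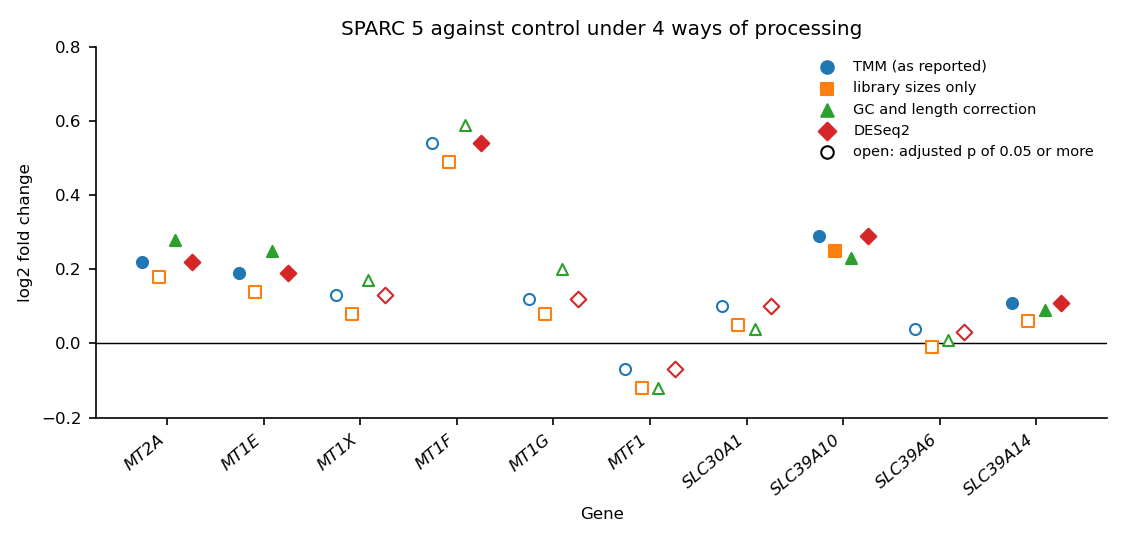
Log2 fold change of each member at SPARC 5 against control under TMM scaling as reported, library sizes only, removal of GC and length trends, and DESeq2, with filled markers where the adjusted p was under 0.05. SLC39A10 is filled under all 4, and MT2A, MT1E and SLC39A14 are open with library sizes only.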

How the data were processed

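Per the labels' protocols, ribosomal RNA was removed with RNase H and cDNA was primed with random hexamers. The submitters' processing notes name STAR 2.7.9a, featureCounts 2.0.3, Salmon 1.5.2, edgeR, limma and build GRCh38; the annotation release, strand setting and treatment of reads with several matches are not stated in these sources. The deposited counts are whole reads per Ensembl gene. Per the file headers, the authors' tables hold log2 fold changes with intervals and p-values.

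One entry was kept for each of 168 identifiers listed more than once. Genes passing filterByExpr (minimum count 10) were fitted with edgeR 4.0.16 (TMM, robust quasi-likelihood F-test) under R 4.3.3, the 4 groups sharing a model; SE is the log2 fold change divided by the square root of F. The fit was tested on simulated data. The common biological coefficient of variation was 6.68%. In 40 replicate pairs, chi-square per gene was 4.09 to 9.55, so no 2 replicates of a group agreed within sampling noise. Gene lengths and positions came from GENCODE 29. Alternatives were library sizes only, RLE size factors, DESeq2 1.42.0, no filter, only the groups compared, a replicate block, removal of GC and length trends (GC known for 98.0% of genes), and samples left out.

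The 10 members and 7 lists (other metallothioneins, SLC30, SLC39, copper, manganese and iron, heavy metal stress, glucocorticoid) were chosen with earlier results of these data known. All members are named; from lists, genes called in any comparison and up to 4 more of highest CPM are named, with neighbours in the chromosome 16 cluster and the nearest 3 genes by likeness.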

Additional observations from a re-analysis of the deposited data

Results flagged for a closer look

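Each member was examined for a sample far from the rest of its group, over 40 groups of 5 samples; chance flags about 1 group in 20. MTF1 in control replicate 1, at 47.6 CPM, stood above the other controls (40.7 to 42.5 CPM), with a gap of 0.739 of the group's range. SLC39A6 in control replicate 3, at 84.4 CPM, stood below the other controls (96.4 to 100 CPM), with a gap of 0.77 of the range. Neither gene passed a test with or without these samples.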

How the results depend on the processing

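At SPARC 5 against control, 4 members were called; with library sizes only there was 1, and leaving out 1 sample gave 2 to 5 (2 without control replicate 1). At SPARC 0.5, 0 members were called; DESeq2, no filter and GC and length correction with replicate block each gave 1, and leaving out 1 sample gave 0 to 1. For SPARC 5 against SPARC 0.5, 2 were called, 1 with library sizes only or no filter, and 1 to 2 with 1 sample left out. For SPARC 5 against SPARC 0.05, 3 were called, 1 with library sizes only, 5 with GC and length correction with replicate block, and 2 to 5 with 1 sample left out. The test of any difference called 3, 1 with library sizes only, 5 with GC and length correction with or without the block, and 1 to 4 with 1 sample left out. The trend called 5, 3 with library sizes only, and 3 to 6 with 1 sample left out (3 without SPARC 5 replicate 3). Among all tested genes, SPARC 5 against control called 2665, 3190 with library sizes only, and 2236 to 2662 with 1 sample left out. SPARC 5 against SPARC 0.5 called 1100, 1222 with library sizes only, and 850 to 1142 with 1 sample left out. SPARC 5 against SPARC 0.05 called 1900, 2322 with library sizes only, 2089 with GC and length correction, and 1543 to 1937 with 1 sample left out. The test of any difference called 2529 genes, and 2153 to 2576 with 1 sample left out. The trend called 2541 genes, 3058 with library sizes only, and 2089 to 2535 with 1 sample left out. Over all genes, SPARC 0.5 against control called 517, 819 by DESeq2 and 267 to 608 with 1 sample left out. That count was 333 without control replicate 3 and 267 without SPARC 0.5 replicate 4. SPARC 0.05 called 61, 203 by DESeq2, 13 with GC and length correction, 28 with the block added, and 22 to 82 with 1 sample left out (34, 39 and 23 without control replicate 2, 3 or 4, and 22, 34 and 33 without SPARC 0.05 replicate 2, 3 or 5). Without SPARC 5 replicates 2 and 5 together, 4 members and 2207 genes were called at SPARC 5 against control. In that fit MT2A missed the test of any difference (edgeR adjusted p = 0.0824). The trend then called 4 members and 1971 genes, and SLC30A1 missed it (edgeR adjusted p = 0.0991). Of the genes called at SPARC 5, 60.6% were higher, and 31.3% with library sizes only. The causes were not tested. No member changed sign where it passed a test; 42 sign changes occurred where none passed.

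Correlations of deviations could not tell whether replicate numbers pair the samples, as no pair of either kind was over 0.1. The median was 0.016 in 30 same-numbered pairs (−0.035 to 0.044) and −0.001 in 120 other pairs (−0.063 to 0.087). With a replicate block, 2750 genes in place of 2665 were called at SPARC 5 against control, and 2509 in place of 2541 in the trend. The block called 2004 genes in place of 1900 at SPARC 5 against SPARC 0.05. It called 2671 in place of 2529 in the test of any difference. A replicate block called 4 members at SPARC 5 and 4 in place of 3 at SPARC 5 against SPARC 0.05, where it added MT1E (adjusted p = 0.0476); in the test of any difference its 3 members held MT1E (0.014) in place of MT2A (0.074). Depth limits MT1F, with 36 to 108 counts per sample.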
